A study of Mus musculus with 2 samples.

Results

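Transcripts of 9 genes that make, turn back, carry or read retinoic acid were examined in dendritic cells that had been raised from marrow of CBA/J and C57BL/6 mice. The genes were Rdh10, Dhrs3, Aldh1a1, Aldh1a2, Aldh1a3, Crabp2, Rara, Rarg and Rxra, taken by symbol from the annotated table, in which 21922 genes carried a symbol of their own. All 9 were found, each with 1 probe set. The table places Rdh10 on chromosome 1, Dhrs3 on 4, Aldh1a1 on 19, Aldh1a2 on 9, Aldh1a3 on 7, Crabp2 on 3, Rara on 11, Rarg on 15 and Rxra on 2, so they share no locus. Marrow of normal mice of both strains was grown in the presence of a supernatant containing GM-CSF from a J558L transfectant, harvested on day 7, plated without stimulation and taken for RNA after 4 h. Wells of a strain were pooled, and 1 Affymetrix Mouse Gene 1.0 ST array was run per strain. Neither the age, sex or number of the animals nor the substrain of C57BL/6 is given in the sources used here. With 1 array per strain there is no replicate error, no test and no p-value, and an effect of strain cannot be told apart from one of the culture, the animals or the array.

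Retinoic acid is made from vitamin A in consecutive oxidations. RDH10 converts retinol to retinal, DHRS3 converts retinal back to retinol, and the retinaldehyde dehydrogenases ALDH1A1, ALDH1A2 and ALDH1A3 convert retinal to retinoic acid irreversibly. CRABP2 carries retinoic acid to nuclear receptors made of a RAR and a RXR, which bind DNA at repeats of a short half-site and exchange corepressors for coactivators when the ligand binds. Dendritic cells of the mouse gut are known for Aldh1a2 expression and for using retinoic acid to direct lymphocytes to the gut and to favour regulatory T cells. GM-CSF is known to raise Aldh1a2 in mouse dendritic cells.

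The start-site regions of the members with the largest differences are shown first, because retinoid receptors act through half-sites in such DNA. They are the 250 bases before an annotated start, from RefSeq on GRCm38.p6, the C57BL/6 reference, and CBA/J sequence was not used here. Half-sites are in capitals, searched on either strand as AGGTCA and, with changes at its variable letters, as AGTTCA, as well as GGGTCA and the form GGTTCA. The table held 14 windows for 6 of the 9 members, and 1 window is printed for each gene shown, of 1 for Aldh1a2, 3 for Dhrs3 and 2 for Rxra. The Aldh1a2 window is chr9:71215539-71215788, the Dhrs3 window chr4:144892577-144892826, and the Rxra window, which precedes the downstream of the 2 Rxra starts, chr2:27709042-27709291, all on the plus strand.
Aldh1a2: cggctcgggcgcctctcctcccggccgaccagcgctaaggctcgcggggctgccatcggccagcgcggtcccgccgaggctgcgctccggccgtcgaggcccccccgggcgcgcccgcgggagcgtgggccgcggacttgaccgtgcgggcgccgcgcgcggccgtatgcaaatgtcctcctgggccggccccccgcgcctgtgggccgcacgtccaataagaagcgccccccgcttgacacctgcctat
Dhrs3: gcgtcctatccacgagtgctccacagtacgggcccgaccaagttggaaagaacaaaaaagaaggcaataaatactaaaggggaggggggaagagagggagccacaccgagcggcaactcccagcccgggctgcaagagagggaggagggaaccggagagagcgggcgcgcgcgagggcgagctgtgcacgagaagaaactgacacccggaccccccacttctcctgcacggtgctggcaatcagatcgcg
Rxra: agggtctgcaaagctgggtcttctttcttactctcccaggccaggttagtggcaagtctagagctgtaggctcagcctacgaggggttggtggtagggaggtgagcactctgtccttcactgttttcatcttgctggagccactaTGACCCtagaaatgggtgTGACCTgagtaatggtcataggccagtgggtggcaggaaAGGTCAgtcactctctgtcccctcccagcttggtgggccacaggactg
The Aldh1a2 window held 40 CG dinucleotides, more than 98.7% of all 32851 windows, and the printed Dhrs3 window held 19, more than 80.3% of them. The other Dhrs3 windows held 8 and 7. No window of either gene contained a half-site of these spellings. The printed Rxra window, chosen because it holds half-sites, had 1 CG dinucleotide and 3 half-sites, which begin at positions -105, -87 and -48, where -1 is the last base before the start. The window at the upstream Rxra start had 40 CG dinucleotides and no half-site. At least 1 such half-site occurred in 4 of the 14 member windows and in 38.6% of all windows, and 3 or more occurred in 1.84% of all windows. Since the printed Rxra window was chosen for its half-sites, the last share does not measure how unusual it is. A Rara window, not printed, held 4 half-sites, and Rara was nearly level between the arrays. A match is a run of letters and was not tested for binding.

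Signals below are the authors' log2 values, and differences are CBA/J minus C57BL/6. A gene was counted when the array on which it was brighter lay at or above that array's median over genes, which was 6.16 for CBA/J and 6.21 for C57BL/6. This left 11442 genes, with a median difference of 0.08 and a robust SD across genes of 0.26. Of them 245, or 2.14%, differed at least 2-fold, with more signal in CBA/J for 154 (1.35%) and in C57BL/6 for 91 (0.795%). Negative control probe sets differed at least 2-fold in 101 of 1845 cases (5.47%) that met the same median rule. Negative control probe sets are no pure measure of noise, as some were brighter than Dhrs3, which exceeded 99.1% of them on the CBA/J array. Their median signal was 5.49 on the CBA/J array and 5.27 on the C57BL/6 array, and their 95th percentile was 8.28 and 8.17. Of the 9 members, 6 reached the median. Dhrs3 alone exceeded the 95th percentile of the negative controls on both arrays, Aldh1a2 exceeded it on the C57BL/6 array, and the other 7 were below it on both.

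**Figure D1:**
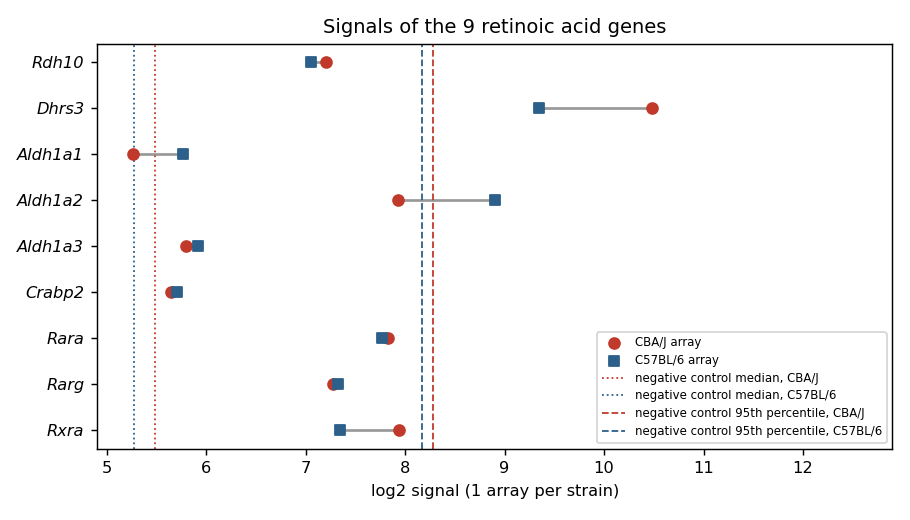
Log2 signal of each of the 9 members on the CBA/J array (circles) and the C57BL/6 array (squares), with the median (dotted) and 95th percentile (dashed) of each array's negative controls. Dhrs3 is displaced toward CBA/J (10.48 against 9.35) and Aldh1a2 toward C57BL/6 (7.92 against 8.90), while Aldh1a1, Aldh1a3 and Crabp2 stay near the negative control medians.

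Among the enzymes that form retinoic acid, Aldh1a2 alone reached the array median, and its signal was higher in C57BL/6 cells. Its log2 signal was 7.92 on the CBA/J array against 8.90 on the C57BL/6 array, a difference of -0.98 or 1.97-fold, just under the 2-fold threshold. The C57BL/6 array is the high one. A lower difference was found in 0.865% of the counted genes. Of 2659 genes with a mean signal within 0.5 of that of Aldh1a2, 55 (2.07%) had a larger difference in either direction, as did 1 of 188 negative and 0 of 324 positive control probe sets of like signal. The difference passed 2-fold under each alternative scaling, at -1.06 after quantile normalization, -1.06 with the median difference of all genes subtracted and -1.10 with the trend on signal level subtracted.

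The other retinaldehyde dehydrogenases gave signals close to background. Aldh1a1 had a log2 signal of 5.26 on the CBA/J array against 5.76 on the C57BL/6 array. The CBA/J value lay below the negative control median, so no fold is given, and the difference of -0.50 became -0.27 with that array raised to the median. Aldh1a3, the third enzyme of the family, was at 5.79 and 5.91. Neither gene reached the array median on either array. In mixed RNA of a culture, fewer cells that express a gene and less RNA per cell cannot be told apart, which applies to every gene here.

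Dhrs3, whose enzyme returns retinal to retinol and which is itself known to be induced by retinoic acid, was the one member past 2-fold in the deposited values. Its log2 signal was 10.48 on the CBA/J array against 9.35 on the C57BL/6 array, a difference of 1.13 or 2.19-fold higher in CBA/J. The CBA/J array is the high one here, opposite to Aldh1a2. A higher difference was found in 1.01% of the counted genes. Of 819 genes of like signal 14 (1.71%) had a larger difference in either direction, and none of 46 negative or 165 positive control probe sets did. Under each alternative scaling the Dhrs3 difference was 1.06, past 2-fold.

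Rdh10, which supplies the retinal that both Dhrs3 and the dehydrogenases use, barely differed. It was at 7.20 on the CBA/J array against 7.05 on the C57BL/6 array, a difference of 0.15, and 59.6% of genes of like signal had a larger one. The Dhrs3 and Aldh1a2 differences lay 2.11 apart on the log2 scale, a gap that subtracting a constant from an array cannot alter and that reached 2.16 with the trend on signal level subtracted. The transcript of the enzyme that reduces retinal thus had more signal in CBA/J, and that of Aldh1a2, which oxidises it, had more signal in C57BL/6.

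The carrier gene Crabp2 was near background, at 5.64 on the CBA/J array against 5.70 on the C57BL/6 array, and did not reach the array median. Among the receptors, Rxra, which encodes the partner shared by the RARs and several other nuclear receptors, had the largest difference. Its log2 signal was 7.94 on the CBA/J array against 7.34 on the C57BL/6 array, a difference of 0.59 or 1.51-fold higher in CBA/J. Both Rxra values lay below the 95th percentile of the negative controls. Of 3338 genes of like signal 214 (6.41%) had a larger difference, as did 74 of 411 negative control probe sets and 26 of 278 positive ones (9.35%). The difference fell under 1.5-fold under each alternative scaling, at 0.51 after quantile normalization, 0.52 with the median difference subtracted and 0.49 with the trend subtracted.

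The retinoic acid receptor genes themselves were nearly level between the arrays. Rara, the broadly expressed RAR of blood cells, was at 7.83 on the CBA/J array against 7.77 on the C57BL/6 array, a difference of 0.06 that turned to -0.03 after quantile normalization. Rarg was at 7.27 and 7.32, a difference of -0.05. Larger differences than these were found in 83.4% and 87.0% of genes of like signal.

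By count, 1 of the 6 members that reached the median was past 2-fold, Dhrs3, against 2.14% of all counted genes. Aldh1a2 made it 2 of 6 after quantile normalization, with the median difference subtracted and with the trend subtracted, against 2.13%, 2.13% and 2.1% of the genes counted under each. At 1.5-fold, Dhrs3, Rxra and Aldh1a2 passed, 3 of 6 against 6.93% of all counted genes, of which 4.46% were higher in CBA/J, like Dhrs3 and Rxra, and 2.47% in C57BL/6, like Aldh1a2. Without Rxra it was 2 of 6 after quantile normalization, with the median difference subtracted and with the trend subtracted, against 6.55%, 6.54% and 6.6% of the genes counted under each. The median difference of the 6 was 0.11, beside 0.08 over all counted genes, and 4 were higher in CBA/J against 61.3% of all counted genes. Rdh10, Rara and Rarg lay within 0.2 of 0, as did 53.1% of all counted genes. The members thus held differences in both directions.

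**Figure D2:**
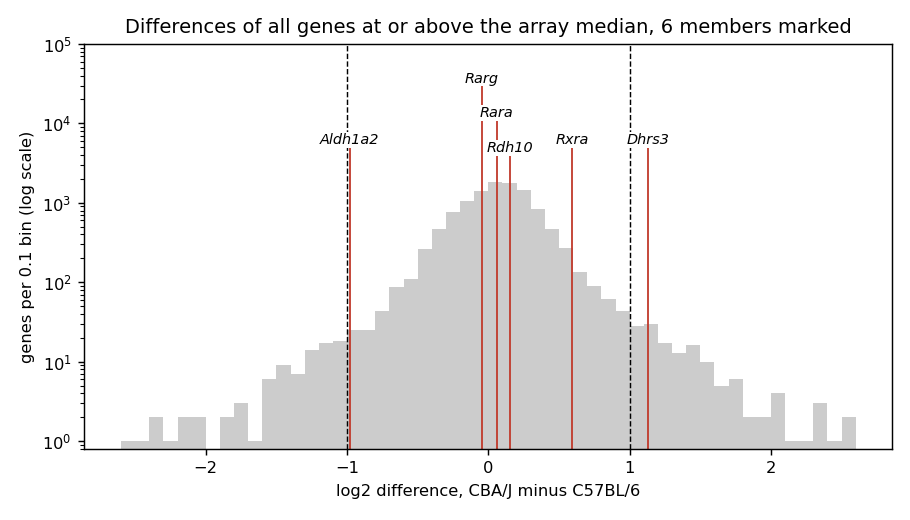
Number of genes per 0.1 of log2 difference (CBA/J minus C57BL/6, log axis of counts) for the genes whose brighter array reached its median, drawn between -2.6 and 2.6, with the 6 members marked by lines and 2-fold by dashes. Aldh1a2 at -0.98 and Dhrs3 at 1.13 lie in the opposite tails, and Rara, Rarg and Rdh10 lie in the central mass.

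**Figure D3:**
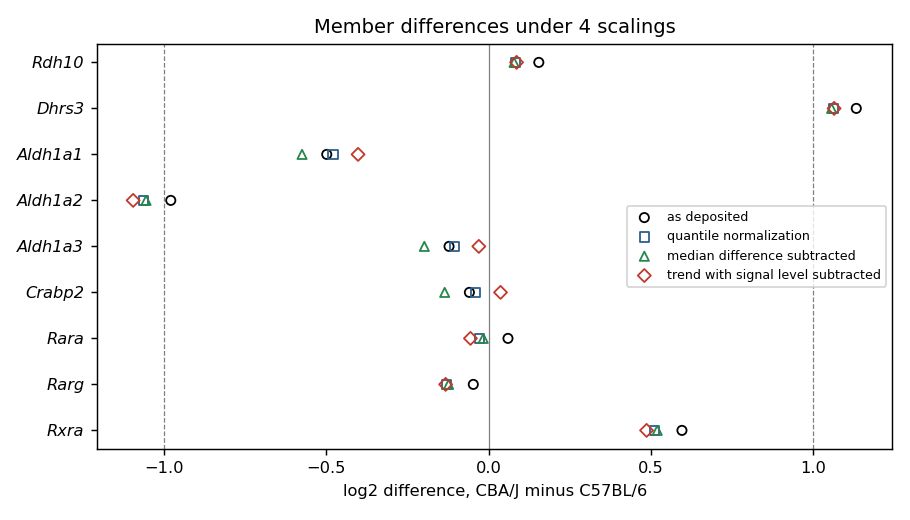
Log2 difference, CBA/J minus C57BL/6, of the 9 members as deposited and after each of 3 other scalings, with 2-fold marked by dashes. Dhrs3 stays above 1 and Rxra between 0.49 and 0.59, Aldh1a2 passes -1 in all but the deposited values, and Rara and Crabp2 change sign around 0.

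Other genes, of the pathway and of mucosal dendritic cells, were taken from 8 lists, together 124 genes, of which 73 reached the median. Of these 73, 5 were past 2-fold against 2.14% of all counted genes. The list of mucosal dendritic cell and regulatory T cell support genes, 14 of the 73, held 4 of the 5, and Vdr was the other. Of the 5, 1 was higher in CBA/J, against 1.35% of all counted genes, and 4 in C57BL/6, against 0.795%, and the median difference was 0.07 beside 0.08 over all counted genes. The lists and the members were chosen with earlier results of these data known.

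Retinoid uptake and storage genes were mostly dim. Of 14 genes 3 reached the median and none was past 2-fold, beside 2.14% of all counted genes. Dgat1, an acyltransferase that can esterify retinol, was at 8.13 on the CBA/J array against 8.64 on the C57BL/6 array (-0.51). Scarb1, a lipoprotein receptor that takes up carotenoids, was at 8.88 and 8.50 (0.37). The retinol-binding protein receptor gene Stra6 was at 6.48 and 6.38, and the esterifying enzyme gene Lrat (4.87 and 4.62) did not reach the median.

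Of 20 other retinol and retinal oxidoreductases 7 reached the median, 3 higher and 4 lower in CBA/J, beside 61.3% of all counted genes higher. None was past 2-fold, beside 2.14% of all counted genes. Akr1c13, an aldo-keto reductase gene, was at 5.82 and 6.66 (-0.84), with the CBA/J value below the array median. Dhrs9, a retinol dehydrogenase gene, was at 7.73 and 7.12 (0.61), in the direction of Dhrs3. Dhrs4 (0.31) and Rdh13 (0.28) followed. Of 16 other aldehyde dehydrogenases 11 reached the median and none was past 1.5-fold, beside 6.93% of all counted genes. The largest differences were those of Aldh7a1 (-0.53), Aldh18a1 (-0.49), Aldh9a1 (-0.43) and Aldh1l1 (0.39), enzymes that serve other substrates.

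Of 6 genes for breakdown and delivery of retinoic acid 3 reached the median. None of the 3 was past 1.5-fold, beside 6.93% of all counted genes. All 3 had lower signal in CBA/J, as 38.0% of all counted genes did. Fabp5, which encodes a fatty acid-binding protein that can carry retinoic acid to PPARD, was at 8.99 on the CBA/J array against 9.55 on the C57BL/6 array (-0.56). Fabp5 had 2 probe sets, and the brighter, used here, is placed on chromosome 9 by the annotation. Whether that probe set lies at the gene itself was not checked. The Fabp5 value, and its place among the 3, may therefore not be those of the gene. The degrading enzyme genes Cyp26b1 (6.18 and 6.54) and Cyp26c1 (6.21 and 6.36) were close to the array medians, and Cyp26a1 (4.95 and 4.74) and Crabp1 (6.06 and 6.17) did not reach them. The median of the 3 genes was -0.36, and between -0.44 and -0.32 under the other scalings.

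Among the other retinoid receptors and the partners of RXR, 8 of 17 reached the median. The one past 2-fold was Vdr, the vitamin D receptor gene, whose product pairs with RXR. Its log2 signal was 7.28 on the CBA/J array against 8.98 on the C57BL/6 array, a difference of -1.70 or 3.26-fold. Pparg, another partner of RXR, which has been linked to retinoic acid synthesis in human dendritic cells, was at 7.65 and 6.77 (0.88, 1.84-fold higher in CBA/J). Rxrb was at 7.91 and 7.62 (0.29). Rarb, a classical retinoic acid target as well as a receptor, had the same value of 4.66 on both arrays, below the negative control medians. The orphan receptor gene Nr4a2, chosen after its values were seen, was at 6.60 and 7.44 (-0.84). RXR partners thus differed in both directions, while Rxra was higher in CBA/J.

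All 17 corepressor and coactivator genes reached the median, 16 with higher signal in CBA/J, beside 61.3% of all counted genes. None was past 1.5-fold, beside 6.93% of all counted genes. Their median difference was 0.18, beside 0.08 over all counted genes, and 0.10 beside 0.01 with the trend on signal level subtracted. The largest were Tbl1xr1 (0.49), a subunit of the NCOR corepressor complex, Prmt1 (0.42), Ncoa3 (0.42), a coactivator, and Sin3a (0.40). After quantile normalization 13 of the 17 were higher in CBA/J, beside 51.1% of all counted genes.

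Known retinoic acid target genes showed no common direction. Of 20 genes 12 reached the median, 7 higher and 5 lower in CBA/J, beside 61.3% of all counted genes higher. Their median was 0.08, the same as over all counted genes. None was past 2-fold, beside 2.14% of all counted genes. After quantile normalization 5 were higher and 7 lower, beside 51.1% of all counted genes higher. Rarres1 was at 6.40 on the CBA/J array against 5.54 on the C57BL/6 array (0.86), and the ectoenzyme gene Cd38 was at 8.85 and 8.23 (0.62). Itgb7 (0.53) and Itga4 (-0.36), which encode the chains of the gut-homing integrin that retinoic acid induces on lymphocytes, differed in opposite directions. Dhrs3 itself is a known target, and its 1.13 exceeded the difference of each of these 12 genes.

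Genes of mucosal dendritic cells and of regulatory T cell support held 4 of the 5 list genes past 2-fold. Tnfsf4, which encodes OX40 ligand (-2.35), Ccl22 (-1.81) and Ccr7 (-1.35), which guides dendritic cells to lymph nodes, were higher in C57BL/6, as Aldh1a2 was. These differences were already known when the list was drawn up and are no independent support. Tnfsf4 (5.56 and 7.91) was counted through the C57BL/6 array alone, as its CBA/J value lay below the array median. With both arrays required to reach the median, 4 of 69 list genes were past 2-fold, beside 153 of 10474 genes. Ctnnb1, which encodes beta-catenin, was at 10.74 on the CBA/J array against 9.48 on the C57BL/6 array (1.26, 2.39-fold higher in CBA/J). The receptor chain genes for GM-CSF hardly differed, at 0.09 for Csf2ra and -0.04 for Csf2rb, nor did the related gene Csf2rb2 (0.15). These genes were chosen after their values were seen. Itgae, which encodes the CD103 chain of gut dendritic cells, did not reach the median, at 5.49 and 5.61.

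**Figure D4:**
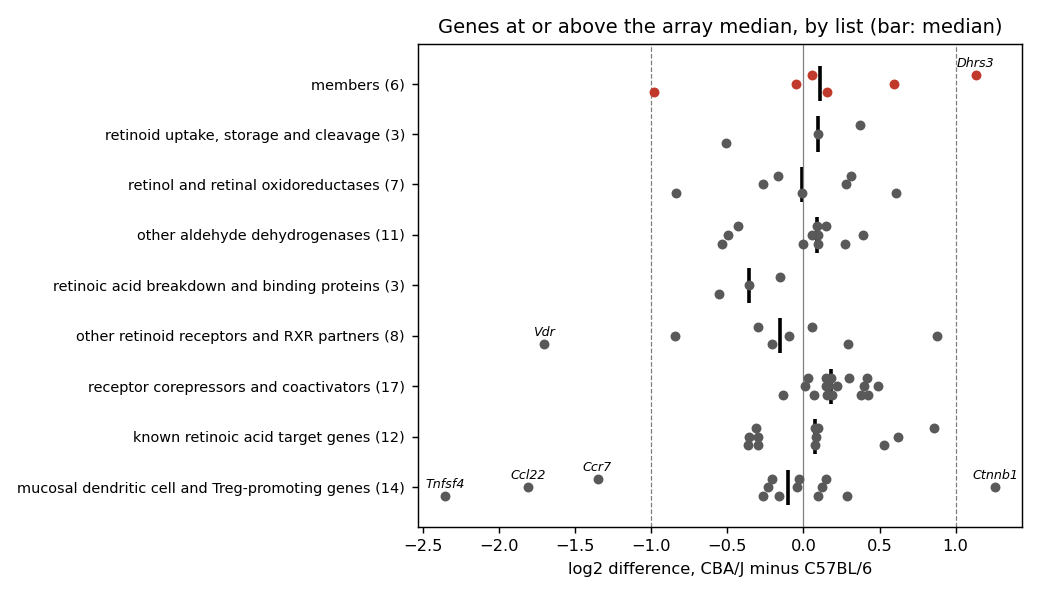
Log2 difference, CBA/J minus C57BL/6, of each gene that reached the median in the members and in 8 lists, with list medians as bars, the number of genes in parentheses and genes past 2-fold (dashes) named. Vdr (-1.70), Tnfsf4, Ccl22 and Ccr7 lie on the C57BL/6 side and Dhrs3 and Ctnnb1 on the CBA/J side.

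The genes whose pair of values was nearest to that of Aldh1a2, by Euclidean distance over the 2 arrays, were Nr4a3 at 7.93 and 8.87 (distance 0.03), Stat4 at 7.90 and 8.97 (0.07) and Rogdi at 8.06 and 8.77 (0.20). With 2 arrays this says that their values are alike and nothing more.

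Markers of cell types that such cultures hold differed in both directions. The dendritic cell markers Itgax (10.50 on the CBA/J array against 10.63 on the C57BL/6 array) and Cd74 (12.02 and 12.33) were bright on both arrays, whereas Flt3 (5.67 and 5.65) and Xcr1 (5.01 and 5.17) did not reach the median. Of 10 dendritic cell markers that did, 4 were higher in CBA/J, beside 61.3% of all counted genes. The maturation marker Cd83 (-1.33) was past 2-fold in the direction of Aldh1a2, beside 0.795% of all counted genes. The summed linear signal of all 12 was 11218 and 11431. Of 11 monocyte and macrophage markers 9 were higher in CBA/J, again beside 61.3%, in the direction of Dhrs3, Rxra and Pparg. Their median difference was 0.61 and their summed signals were 12580 and 9060. All 4 neutrophil markers that reached the median were past 2-fold higher in CBA/J, beside 1.35% of all counted genes. For Ly6g (7.53 and 4.96) the C57BL/6 value lay below the negative control median. Mpo, Ltf, Camp and Cxcr2 did not reach the array median, and the summed signal of the 8 measured was 1523 and 546. Stromal and endothelial markers, 7 of 9 higher in CBA/J beside 61.3% of all counted genes, had a median of 0.29 and summed to 1543 and 1265. Mast cell and basophil markers, 3 of 4 lower in CBA/J beside 38.0% of all counted genes, summed to 526 and 743. Fcer1a, Ms4a2, Mcpt8 and Cma1 lay below the negative control medians. Of these markers Cpa3 (5.04 and 7.61) and Hdc (6.14 and 7.41) were past 2-fold, in the direction of Aldh1a2, beside 0.795% of all counted genes. The CBA/J value of Cpa3 lay below the negative control median, and Gata2 (7.82 and 7.23) was higher in CBA/J. Eosinophil markers, 1 of 2 higher in CBA/J, summed to 572 and 439, with Epx, Prg3, Il5ra and Ccr3 not reaching the median. The part of these cell types in the Aldh1a2, Dhrs3 and Rxra differences was not tested.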

How the data were processed

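Log2 signal values per probe set were deposited by the authors for 35557 probe sets, and the submitters' processing notes name Affymetrix Expression Console 1.1; how it summarized and normalized the probes is not stated. Both arrays had nearly one distribution, with sorted values at most 0.16 apart, so a shift common to most genes could have been removed. The authors' deposited linear ratio and log2 difference columns, per the file headers CBA over BL6, matched the array columns and were not used further. Array probes follow the C57BL/6 reference, so a CBA/J variant under a probe can lower a signal; probe sequences were not used here.

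Of the probe sets, 24422 carried 1 symbol, and the brightest represented each gene. Older symbols were matched through the RefSeq table of GRCm38.p6, which placed all 130 list entries and 57 of 59 marker entries. Named were all members; of each list the genes past 2-fold, otherwise up to 4 with the largest differences; 9 further retinoid genes whatever their values; and the 3 genes nearest to Aldh1a2. The result for 1 gene that this rule takes in is not reported here. The members and lists were chosen with earlier results of these data known. No test was possible with 1 array per strain, which limits the precision. Scaling, level filter, probe set choice, threshold and source of values were varied; the trend was a lowess curve with a fraction of 0.3. The calculation was tested on simulated data. Python 3.11.15, numpy 2.4.6, pandas 2.3.3 and statsmodels 0.14.6 were used.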

Additional observations from a re-analysis of the deposited data

How the results depend on the processing

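No paired analysis was possible because each strain had 1 array. The number of members past 2-fold, 1 as deposited, was 2 after quantile normalization, 2 with the median difference subtracted and 2 with the trend on signal level subtracted, since Aldh1a2 then joined Dhrs3, against 2.13%, 2.13% and 2.1% of all counted genes. At 1.5-fold it was 3 as deposited, with 11 list genes and 793 of all counted genes. The number of all genes past 2-fold was 245 of 11442 under the main rule. It was 153 of 10474 with both arrays required to reach the median. With the higher array required to reach the 95th percentile of the negative controls it was 110 of 4088. The lower counts thus came with fewer genes counted. The share of genes past 2-fold that were higher in CBA/J was 62.9% as deposited and 55.6% after quantile normalization. It was 53.5% with the median difference subtracted and 57.1% with the trend subtracted. Of 54 alternative values of single member differences 26 were identical by construction, since each member has 1 probe set, the deposited tables hold the same values and the background floor touches Aldh1a1 alone; the other 28 moved by less than the robust SD across genes of 0.26. Rara and Crabp2 changed sign, between -0.06 and 0.06 and between -0.14 and 0.04. Signals of 7 members below the 95th percentile of the negative controls limit what their differences can show.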

Other observations

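Some genes had exactly the same value on both arrays. This held for 560 of 21922 genes (2.55%), with a median log2 signal of 4.77, and for 10 of 5222 negative control probe sets. Rarb, the RXR partner gene Nr1h4 (4.21), the retinol dehydrogenase gene Sdr16c5 (3.73) and Aldh1b1 (6.45) were among them. Of these genes, 83 reached the array median.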
